A study of Rattus norvegicus with 6 samples.

Results

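Mast cells are granule-filled immune cells that are abundant in rat mesentery, and 10 of the genes that characterise them were followed through the mesenterial fat of newborn rats. The genes were the tryptases Tpsab1 and Tpsb2, the carboxypeptidase Cpa3, the chymase Cma1, the receptor gene Kit, the IgE receptor chains Fcer1a and Ms4a2, the histamine enzyme Hdc, the granule proteoglycan Srgn and the prostaglandin enzyme Hpgds. They were chosen by name, and every probe set that the array annotation gives to that symbol alone was taken. This found all 10 genes, on 11 of the 20826 probe sets that carry a single symbol.

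The samples were 6 arrays of wildtype Sprague-Dawley rats, an outbred strain, all newborn. Their dams had eaten either a vitamin D adequate diet of 1000 IU per kg (the adequate group, 3 arrays) or a deficient diet of 0 IU per kg (the deficient group, 3 arrays). Affymetrix Rat Genome 230 2.0 arrays measured the RNA, and the values are linear signal intensities. Whether each array is a separate animal or litter is not stated in the labels. The p-values therefore measure the spread between these arrays, which may be technical, and their small number limits the precision of each value.

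A mast cell matures in the tissue under the control of stem cell factor, the ligand of Kit. It stores neutral proteases, histamine and heparin in its granules, held together by serglycin, and carries IgE on a receptor built from the chains of Fcer1a, Ms4a2 and Fcer1g. Cross-linking of that IgE releases the granules and starts the synthesis of prostaglandin D2 and leukotrienes. Mast cells of connective tissue are rich in tryptase, chymase and carboxypeptidase. Srgn and Hpgds are also made by other blood-derived cells, Kit by interstitial cells of Cajal and melanocytes, and Hdc and the IgE receptor chains by basophils.

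The arrays of the deficient group differed among themselves. Deficient arrays 1 and 2 stood apart on the first principal component, at 43.1 and 46.4 against -26.2 to -18.5 on the other 4 arrays. Their bacterial hybridisation controls were 7.06-fold and 9.94-fold brighter than in the adequate group on average, and the fold was 0.942 for deficient array 3. Their beta-actin 3' over 5' ratios were 7.56 and 6.80, against 2.35 to 4.81 elsewhere. Counts are therefore also given with deficient array 3 alone against the adequate arrays, that is, without both. The tissue label was checked on 9 adipocyte markers: Fabp4, Lpl, Lipe, Cd36 and Dgat2 were bright enough to test, while Adipoq, Plin1, Cidec and Pparg lay below the filter on dim probe sets (a mean signal of 88.2).

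The RefSeq gene table (GRCr8 assembly) places the tryptases side by side, Tpsab1 next to Tpsb2 and Tpsb2 next to the related gene Tpsg1. The start regions of the 4 granule protease genes are shown. Their signals were below the adequate mean on deficient arrays 1 and 2, as were those of Hdc and Hpgds, which are not printed. Each printed region runs 5′ to 3′ from 250 bases before to 50 bases after the annotated start, from RefSeq on GRCr8. Capitals mark the motifs searched on both strands: GATAA (GATA factors), CACATG (an E-box of the MITF type), AGGAAG (ETS family) and AGGTCA (a nuclear receptor half-site); a match on the opposite strand is capitalised as it reads on the printed one.
Tpsab1 (chr10:14867253-14867552, minus strand): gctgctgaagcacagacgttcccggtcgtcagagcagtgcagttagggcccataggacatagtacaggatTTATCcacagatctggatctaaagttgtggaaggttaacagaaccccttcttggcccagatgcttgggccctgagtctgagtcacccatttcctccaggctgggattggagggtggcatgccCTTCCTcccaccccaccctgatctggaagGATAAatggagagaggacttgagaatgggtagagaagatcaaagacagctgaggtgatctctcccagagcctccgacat
Tpsb2 (chr10:14886060-14886359, plus strand): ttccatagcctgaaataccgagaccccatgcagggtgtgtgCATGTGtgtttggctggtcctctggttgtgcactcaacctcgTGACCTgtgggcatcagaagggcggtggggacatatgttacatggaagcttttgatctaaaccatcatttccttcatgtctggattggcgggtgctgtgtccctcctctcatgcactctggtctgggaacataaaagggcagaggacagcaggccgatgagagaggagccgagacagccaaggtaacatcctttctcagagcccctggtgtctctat
Cpa3 (chr2:104673188-104673487, minus strand): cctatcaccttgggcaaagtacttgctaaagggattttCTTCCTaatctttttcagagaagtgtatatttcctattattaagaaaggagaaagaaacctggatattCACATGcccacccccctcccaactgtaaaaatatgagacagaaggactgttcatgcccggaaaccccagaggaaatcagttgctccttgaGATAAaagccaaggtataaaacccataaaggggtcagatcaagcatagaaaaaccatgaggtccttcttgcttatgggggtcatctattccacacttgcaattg
Cma1 (chr15:33390084-33390383, minus strand): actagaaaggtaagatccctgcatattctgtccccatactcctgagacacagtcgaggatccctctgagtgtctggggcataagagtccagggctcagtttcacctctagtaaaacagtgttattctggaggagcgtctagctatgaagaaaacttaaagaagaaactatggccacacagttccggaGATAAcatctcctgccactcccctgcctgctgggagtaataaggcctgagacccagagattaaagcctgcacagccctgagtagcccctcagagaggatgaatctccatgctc

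Of the 10 genes, 8 had an entry in the promoter table, and Ms4a2 and Hpgds had none. GATAA lay in 4 of the 8 windows, those of Tpsab1, Cpa3, Cma1 and Fcer1a, against 26.5% of 33469 rat windows of the same length. The E-box lay in 3 (Tpsb2, Cpa3 and Fcer1a; 14.0% of all windows), AGGAAG in 3 (Tpsab1, Cpa3 and Hdc; 34.5%) and AGGTCA in 1, that of Tpsb2 (16.2%). In Tpsab1, Cpa3 and Cma1 a GATAA on the printed strand began at positions -29, -54 and -63 from the start. The Tpsb2 window, the other tryptase, held no GATAA. No overlap between these motifs occurred in the printed windows, and a match is a description of letters only.

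The comparison asks whether the dams' vitamin D supply goes with a difference in mast cell genes of the offspring's fat. None of the members passed the threshold of an adjusted p under 0.05 in limma, a linear model fitted to all probe sets, and neither did any other probe set (0 of 18625, 0.0%). Of the 9 member genes bright enough to test, Tpsb2 passed the filter only through the adequate group, so it is described and not read as a test. Of the other 8, Tpsab1 and Hdc were lower in the deficient group at an unadjusted p under 0.05 (2 genes, or 3 with Tpsb2), and 0 were higher. Over all tested probe sets 14.2% had such a p, which splits into 8.18% lower and 6.03% higher in the deficient group. Values were lower for 7 of the 8, and for Tpsb2, against 55.3% of all tested probe sets, and the exception was Srgn. The 7 include Fcer1a and Ms4a2, each at a log2 change of only -0.01, whose signs turned under some alternatives. The median log2 change was -0.24 over the 8 genes and -0.30 with Tpsb2, against -0.05 over all tested probe sets. In bulk tissue, fewer mast cells and less RNA per mast cell cannot be told apart.

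The lower values of the 4 granule proteases rested mainly on deficient arrays 1 and 2. The count of lower values across the 9 members takes the sign alone, whatever its size. With deficient array 3 alone 7 of the 9 were lower (49.7% of all tested probe sets), and without it 6 of the 9 (56.0%). The genes were not the same. With deficient array 3 alone Tpsab1 (0.03) and Tpsb2 (0.01) were higher and Srgn (-0.22) was lower. The 7 included small values, such as those of Cpa3 (-0.03) and Cma1 (-0.06). Deficient arrays 1 and 2 both lay below all adequate arrays for Tpsab1, Tpsb2, Cma1 and Hdc. These were 4 of the 9 genes, against 30.2% of all tested probe sets. Deficient array 3 lay within the adequate range for 5 of the 9 (45.6% of all tested probe sets), below it for Fcer1a, Hdc and Srgn (28.2%) and above it for Tpsab1. The count of 3, with Tpsb2, was 0 with deficient array 3 alone against the adequate arrays, 0 without deficient array 2, and 1 without any 1 of deficient array 1 or adequate arrays 1, 2 and 3. It was 5 without deficient array 3, where no share of all tested probe sets at that unadjusted p is given. The 5 is therefore not read as a result about the members, since 19.4% of all tested probe sets passed even the adjusted threshold there. In that last comparison 3 members had a limma adjusted p under 0.05, Tpsab1 and the dim Tpsb2 lower and Srgn higher, where 10.7% of all tested probe sets passed lower and 8.75% higher. The log2 signal of the 9 genes, averaged and set against the adequate mean, was -0.59 for deficient array 1, -0.45 for deficient array 2 and -0.17 for deficient array 3. Adequate arrays 1, 2 and 3 were at 0.14, -0.23 and 0.09, so deficient array 3 lay within the adequate range. Without Tpsb2 the other 8 genes averaged -0.21, -0.33 and -0.20 on deficient arrays 1, 2 and 3, against -0.24 to 0.13 on the adequate arrays. Only deficient array 2 then lay below the adequate range.

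**Figure D1:**
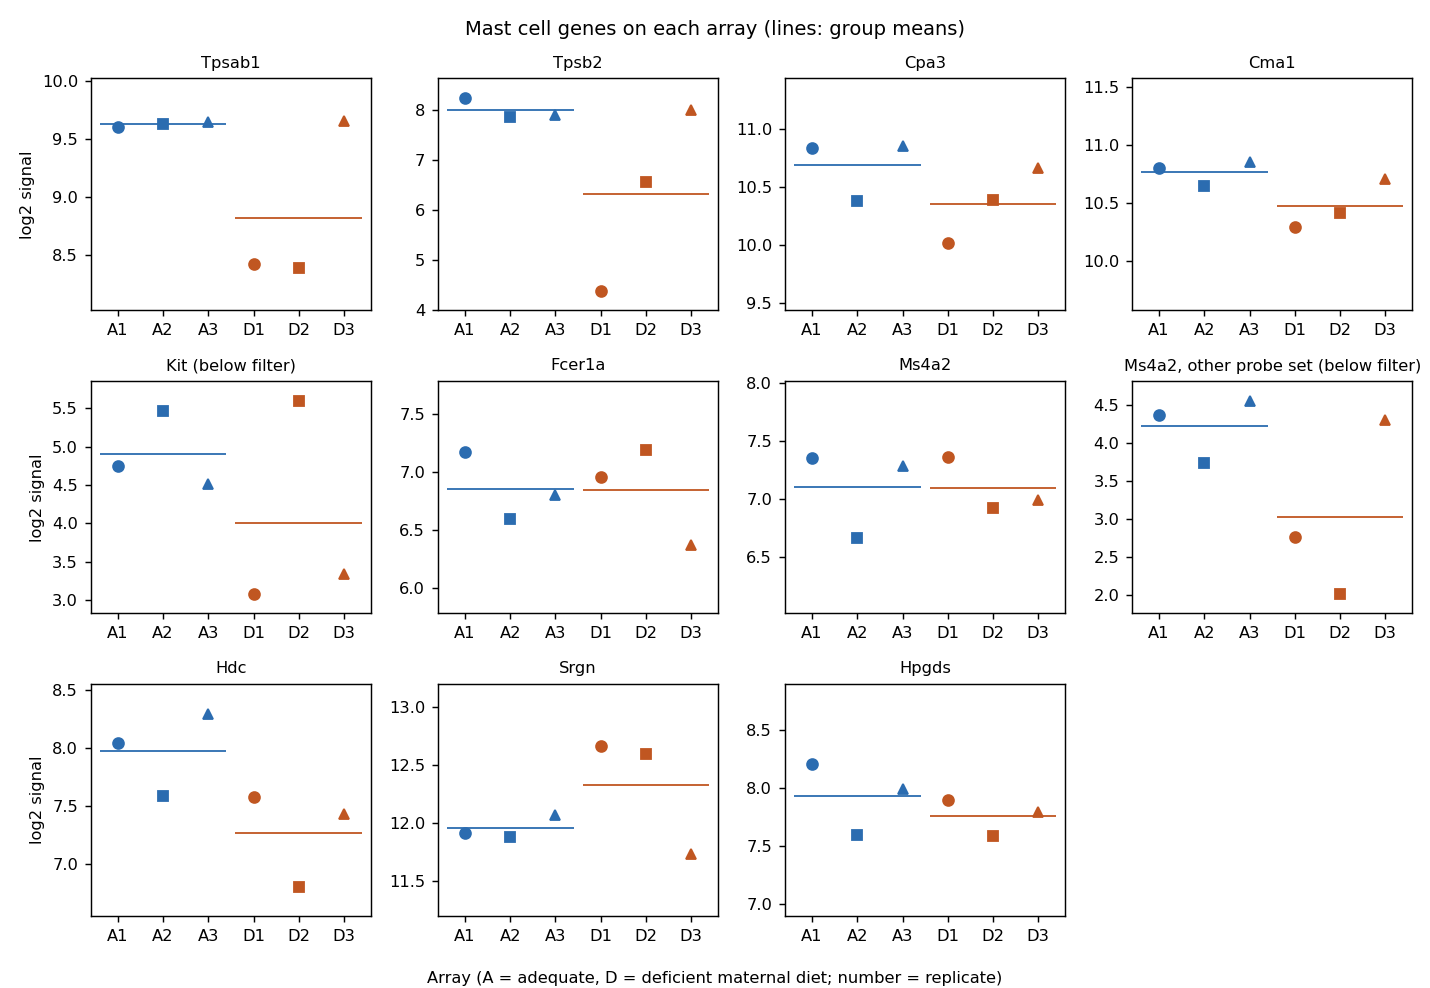
Log2 signal (vertical axis) of each probe set of the 10 mast cell genes on the 3 adequate (A, blue) and 3 deficient (D, orange) arrays (horizontal axis), with lines at group means. The vertical axis does not start at 0 and its range differs between panels. Tpsab1 is low on D1 and D2 only, as is the Ms4a2 probe set below the filter. In Fcer1a and the tested Ms4a2 probe set, D1 and D2 do not lie below the adequate arrays.

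Tryptases are the trypsin-like proteases of the granule, active as tetramers bound to heparin. Tpsab1 (probe set 1387162_at) read 778, 792 and 799 in the adequate group, against 343, 335 and 807 in the deficient group. The adequate arrays and deficient array 3 thus lay close together, and deficient arrays 1 and 2 lay far below them. In log2 signal the groups were at 9.63 ± 0.02 and 8.82 ± 0.72 (SD, n = 3 each). The log2 change was -0.80 ± 0.30 (SE), a fold of 0.573, with an unadjusted p of 0.0231 and an adjusted p of 0.344 in limma. With deficient array 3 alone it was 0.03, and without that array -1.22 (adjusted p 0.00133).

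Tpsb2 (1387334_at), the neighbouring tryptase, read 305, 233 and 239 in the adequate group, against 20.9, 95.4 and 259 in the deficient group. The low ones were again deficient arrays 1 and 2, and deficient array 3 lay inside the adequate range. The log2 signals were 8.01 ± 0.21 and 6.33 ± 1.83 (SD, n = 3 each), the deficient mean being dimmer than the filter's log2 level of 6.46, and a fold is left out. The measured log2 difference was -1.68, given as a description because signals this dim have no sure level. It was -0.71 without deficient array 1, which holds the lowest signal, and 0.01 with deficient array 3 alone. Tryptase genes are closely related in sequence, and how far each probe set reads the other gene is not given in the sources used here.

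Cpa3, mast cell carboxypeptidase A, trims the carboxy ends of peptides that the chymases have cut. Its signals (1371151_at) were 1827, 1329 and 1850 in the adequate group, against 1039, 1345 and 1619 in the deficient group. Deficient array 1 alone lay below all adequate arrays, and the groups overlapped. The log2 change was -0.33 ± 0.20 (SE; limma adjusted p 0.437), with a 95% interval of -0.78 to 0.12.

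Cma1, the chymase gene among the members, read 1788, 1607 and 1850 in the adequate group and 1259, 1366 and 1672 in the deficient group (1387173_at). Deficient arrays 1 and 2 were below every adequate array, and deficient array 3 was between adequate arrays 2 and 1. Its log2 signals were 10.77 ± 0.11 and 10.47 ± 0.21 (SD, n = 3 each), a log2 change of -0.30 ± 0.16 (SE; limma adjusted p 0.393). In all 4 granule proteases deficient arrays 1 and 2 were dimmer than deficient array 3. Their log2 signals minus the adequate mean were -1.20 and -1.24 for Tpsab1, -3.62 and -1.43 for Tpsb2, -0.67 and -0.30 for Cpa3, and -0.47 and -0.35 for Cma1. Whether the tryptases differ from Cpa3 and Cma1 in this was not tested.

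**Figure D2:**
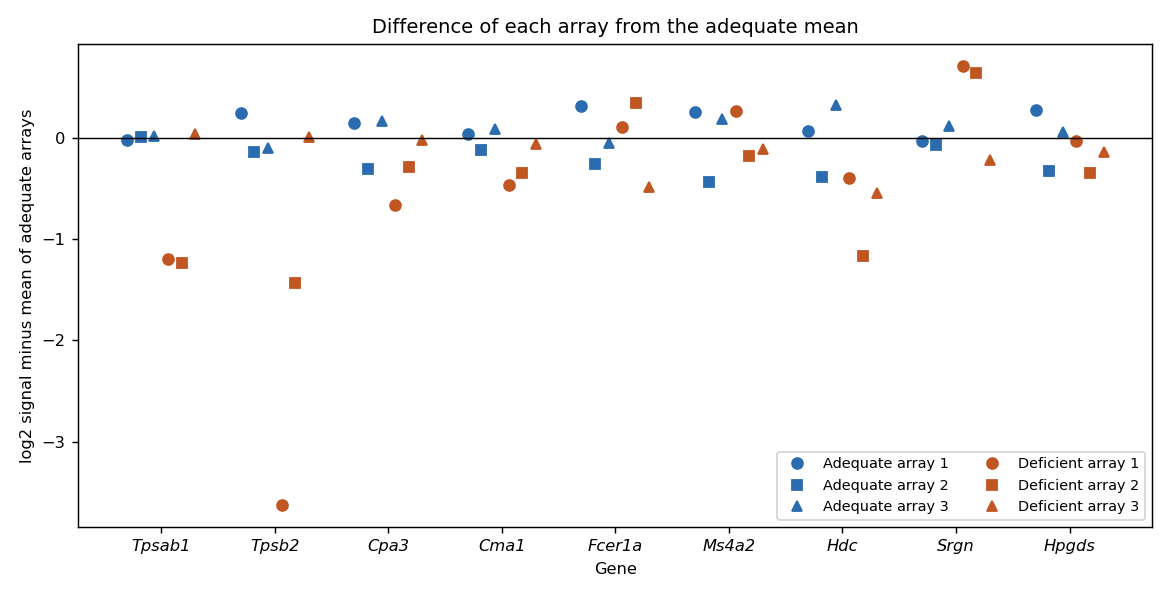
Log2 signal of each array minus the mean of the adequate arrays (vertical axis) for the 9 tested genes (horizontal axis), 1 point per array. Deficient arrays 1 and 2 lie at -1.20 and -1.24 for Tpsab1 and at 0.71 and 0.64 for Srgn, and deficient array 3 lies at 0.03 and -0.22.

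Hdc, histidine decarboxylase, makes histamine from histidine. Its probe set (1370491_a_at) read 263, 191 and 314 in the adequate group, against 190.2, 111 and 172 in the deficient group. It was the only member whose groups did not overlap, by a gap of 191.4 against 190.2, while 10.8% of all tested probe sets had every deficient array below, and 6.55% every one above, all adequate arrays. No member was of the last kind. The log2 signals were 7.97 ± 0.36 and 7.27 ± 0.41 (SD, n = 3 each). The log2 change was -0.71 ± 0.28 (SE), a fold of 0.613, with an unadjusted p of 0.0295 and an adjusted p of 0.344 in limma. Unlike the tryptases, Hdc was low on deficient array 3 too, at -0.55 relative to the adequate mean, and the lowest array was deficient array 2, at -1.17. With deficient array 3 alone the limma unadjusted p was 0.132.

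Srgn encodes serglycin, the proteoglycan core to which granule heparin is attached. It read 3865, 3763 and 4289 in the adequate group, against 6472, 6185 and 3397 in the deficient group (1368655_at). Deficient arrays 1 and 2 were above every adequate array and deficient array 3 was below them. The log2 change was 0.37 ± 0.24 (SE; limma adjusted p 0.442), 0.67 without deficient array 3 (adjusted p 0.00424) and -0.22 with that array alone. Srgn therefore went the other way from the proteases on the same arrays.

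In the tested probe sets of the IgE receptor genes, deficient arrays 1 and 2 did not both leave the adequate range on the same side. Fcer1a, whose product binds IgE, read 144, 96.2 and 111 in the adequate group, against 124, 146 and 82.6 in the deficient group (1387713_a_at). Ms4a2, the signal-amplifying beta chain, read 164, 101 and 156 in the adequate group, against 165, 121 and 127 in the deficient group (1369399_at). The highest and the lowest signal of Fcer1a were both in the deficient group, and those of Ms4a2 lay in different groups. Against the adequate mean, log2 Fcer1a was at 0.10 and 0.34 on deficient arrays 1 and 2. It was at -0.48 on deficient array 3, so the directions were those of Srgn. The log2 changes were -0.01 ± 0.29 with a 95% interval of -0.66 to 0.64 for Fcer1a, and -0.01 ± 0.27 with -0.61 to 0.59 for Ms4a2 (SE; limma adjusted p 0.987 and 0.990). These intervals hold changes as large as that of Cpa3, so no difference was detectable with these arrays.

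A dimmer probe set of Ms4a2 (1370783_a_at) lay below the filter, at 20.5, 13.3 and 23.4 in the adequate group, against 6.81, 4.04 and 19.6 in the deficient group. It was low on deficient arrays 1 and 2, where the brighter probe set lay within the adequate range or above it, so the probe sets of Ms4a2 disagree. Kit, the receptor tyrosine kinase on which mast cells depend, was also below the filter (1369822_at), at 26.8, 44.0 and 22.8 in the adequate group, against 8.43, 48.5 and 10.1 in the deficient group. Its highest signal was on deficient array 2 and its lowest on deficient array 1, and it was not tested.

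Hpgds, the synthase that makes prostaglandin D2 in blood-derived cells, read 296, 194 and 255 in the adequate group, against 239, 192 and 222 in the deficient group (1368492_at). The signals of deficient arrays 1 and 3 lay within the adequate range, and deficient array 2 lay just below adequate array 2, the lowest of its group. Its log2 change was -0.18 ± 0.23 (SE; limma adjusted p 0.710).

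**Figure D3:**
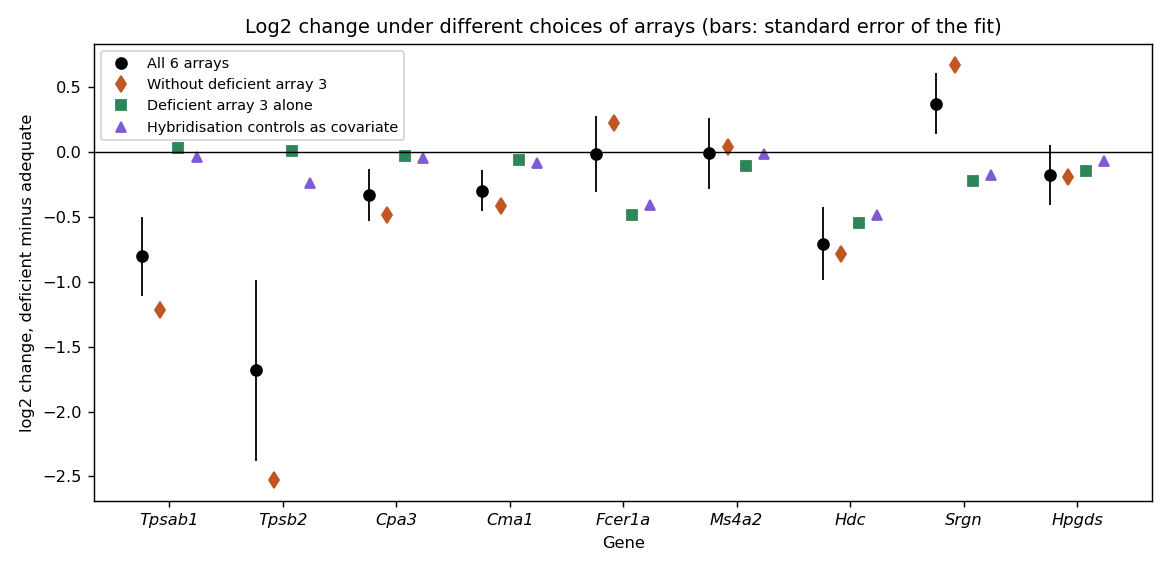
Log2 change, deficient minus adequate (vertical axis), of the 9 tested genes with all 6 arrays (black, bars are the standard error of the fit), without deficient array 3, with only deficient array 3 against the adequate arrays, and with a covariate for the hybridisation controls. Tpsab1 is at -1.22 without deficient array 3 and at 0.03 with that array alone. Hdc, Cpa3, Cma1 and Hpgds keep values below 0 under each of these choices.

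The rest of the mast cell programme was read from lists of other genes of the same pathways. Of 124 listed genes, 105 had a probe set and 70 were tested. Among these, 48 were lower and 22 higher in the deficient group, 7 and 4 of them at an unadjusted p under 0.05, and 0 had an adjusted p under 0.05 in limma. Over all tested probe sets 55.3% were lower and 44.7% higher, and 8.18% and 6.03% had such an unadjusted p, shares near those of the 7 and 4 genes. The median log2 change was -0.23. With deficient array 3 alone against the adequate arrays 37 of the 70 were lower, where 49.7% of all tested probe sets were, and the median was -0.03. Without deficient array 3, 47 were lower (56.0% of all tested probe sets) and 20 of the 70 passed the adjusted threshold (19.4% of all tested probe sets). With the hybridisation controls as a covariate 38 were lower, against 49.9% of all tested probe sets. The counts per list that follow are to be read against these shares. Among the lower genes, Sh3bp2 and Itgb7 passed the filter only through the adequate group. Slc18a2, among the higher ones, passed it only through the deficient group. Their directions are therefore not read as a result.

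Other granule serine proteases, which in rodents form a large family of chymase relatives, were lower in 6 of 6 tested genes (55.3% over all), 0 of them at an unadjusted p under 0.05. Mcpt1, the gene of a chymase of rat connective tissue mast cells, read 2953, 1418 and 2350 in the adequate group, against 1545, 1372 and 2845 in the deficient group. Adequate array 2 was thus as low as deficient arrays 1 and 2, and the log2 change was -0.24 ± 0.31 (SE). Mcpt1l1, its close relative, read 804.8, 389 and 1037 in the adequate group, against 349.9, 219.9 and 979 in the deficient group, with a log2 change of -0.70 ± 0.50 (SE). Mcpt10 had -0.37 ± 0.35 and Mcpt9 -0.35 ± 0.31 (SE). Limma adjusted p in these 4 genes were between 0.490 and 0.716. These genes resemble each other in sequence, and whether a probe set reads several of them was not tested. With deficient array 3 alone, 6 of the 6 had a higher value than the adequate mean, the same count as with the hybridisation controls as a covariate. Without deficient array 3, 6 were lower and 1 passed the adjusted threshold.

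**Figure D4:**
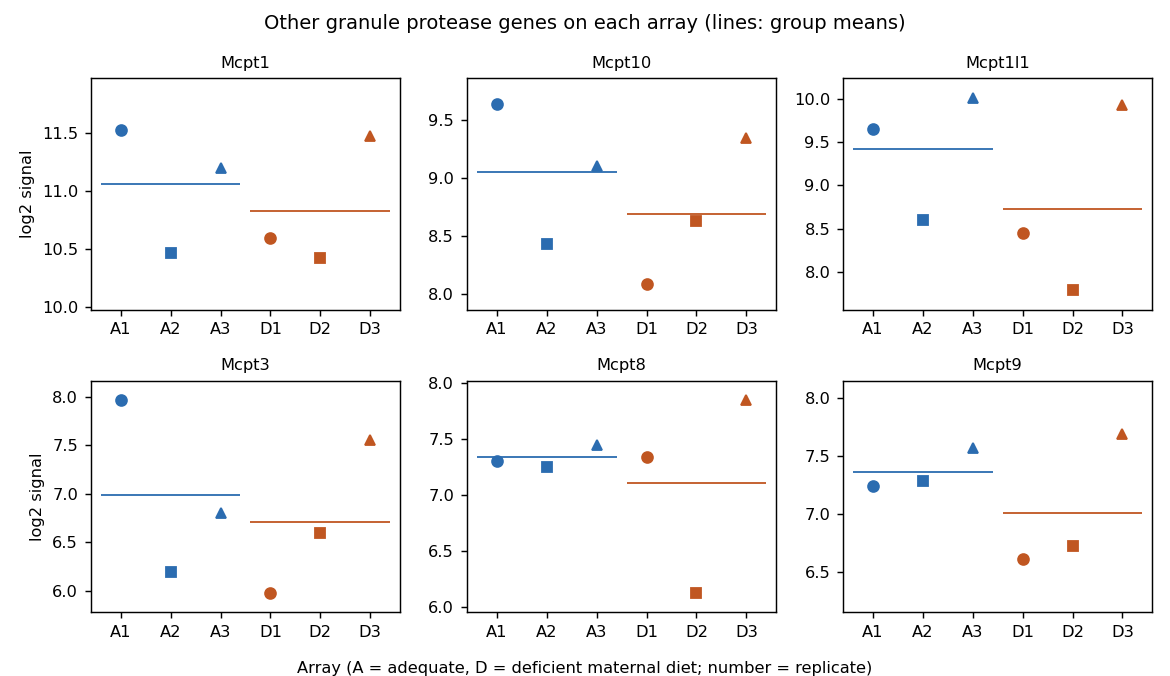
Log2 signal (vertical axis, not starting at 0) of the 6 tested protease genes of the Mcpt family on each array (horizontal axis; A adequate in blue, D deficient in orange), with lines at group means. Mcpt1, Mcpt10 and Mcpt1l1 are low on A2 as well as on D1 and D2, and D3 lies near A1 and A3.

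The signalling chain below the IgE receptor had 10 of 12 tested genes lower (55.3% over all), 3 of them at an unadjusted p under 0.05 (8.18% over all). Sh3bp2, counted as lower, passed the filter only through the adequate group. Fcer1g, the gamma chain that the IgE receptor shares with other Fc receptors, read 1757, 1372 and 1576 in the adequate group, against 1016, 1020.0 and 1385 in the deficient group. Its log2 change was -0.47 ± 0.18 (SE; limma adjusted p 0.344), and deficient array 3 lay inside the adequate range. Ptpn6, a phosphatase that restrains the receptor, read 369.7, 276 and 312 in the adequate group, against 176, 179 and 179.9 in the deficient group. Here all deficient arrays lay together below the adequate arrays, with a log2 change of -0.83 ± 0.21 (SE; limma adjusted p 0.344). The adaptor Lat had -0.76 ± 0.33 and the phospholipase Plcg1 -0.32 ± 0.15 (SE). Of the 12, 8 were lower with deficient array 3 alone (49.7% over all).

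Genes of granule exocytosis were lower in 10 of 11 (55.3% over all), 2 of them at an unadjusted p under 0.05 (8.18% over all). Vamp8, a SNARE protein of the granule membrane, had a log2 change of -0.51 ± 0.21 (SE) and Stim1, the calcium sensor of the endoplasmic reticulum, -0.45 ± 0.19. The other tested probe set of Stim1 had 0.19 ± 0.18. Vamp7 was at -0.51 ± 0.23 and Rab27a, a GTPase of granule docking, at -0.42 ± 0.21, with its other probe set at -0.27 ± 0.26. The limma adjusted p of these 4 genes were between 0.344 and 0.367, and 9 of the 11 were lower with deficient array 3 alone (49.7% over all).

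Kit signalling and the transcription factors of the mast cell lineage had 9 of 12 tested genes higher (44.7% over all), 3 of them at an unadjusted p under 0.05 (6.03% over all). Kitlg, stem cell factor itself, read 1518, 1784 and 1426 in the adequate group, against 2392, 2339 and 1664 in the deficient group, and deficient arrays 1 and 2 were above the rest. Its log2 change was 0.42 ± 0.18 (SE), that of Tal1 0.47 ± 0.20 and that of Runx1 0.93 ± 0.41, the last pair being transcription factors of blood cell formation (limma adjusted p 0.347, 0.348 and 0.350). The other tested probe set of Runx1 had 0.63 ± 0.35. Ptpn11, a phosphatase downstream of Kit, was at -0.32 ± 0.18, and its other tested probe set at 0.47 ± 0.34. Mitf and Gata2, which maintain the mast cell programme, had 0.12 ± 0.27 and 0.10 ± 0.22. Of the 12, 7 were higher with deficient array 3 alone, and 6 when the hybridisation controls were a covariate.

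In the list of granule matrix, heparin and amine storage, 8 of 13 genes were lower and 5 higher, near the 55.3% of all tested probe sets that were lower. With deficient array 3 alone the balance turned to 5 lower and 8 higher, and with the hybridisation covariate it was 6 and 7. Hs2st1, which sulfates heparan and heparin chains, was at 0.55 ± 0.18 (SE; limma adjusted p 0.344) with no overlap between groups, but its other tested probe sets were at -0.55 ± 0.29 and -0.29 ± 0.22. Hpse, the heparanase gene, had -0.41 ± 0.24, Glce, the epimerase of the heparin backbone, -0.33 ± 0.20, and the granule membrane protein Cd63 -0.29 ± 0.17. Slc18a2, the transporter that loads histamine into granules, is counted among the 5 higher genes, with a log2 difference of 0.28. It passed the filter only through the deficient group, so it is described and not read as a test.

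Prostaglandin and leukotriene genes were lower in 5 of 7 with all arrays and in 5 with deficient array 3 alone (55.3% and 49.7% over all), and 1 had an unadjusted p under 0.05. Alox5ap, which presents arachidonic acid to 5-lipoxygenase, read 524, 461 and 559.5 in the adequate group, against 231, 239 and 544 in the deficient group, so that deficient array 3 again lay with the adequate arrays. Its log2 change was -0.72 ± 0.31 (SE; limma adjusted p 0.344). The leukotriene C4 synthase Ltc4s had -0.33 ± 0.24, the cyclooxygenase Ptgs2 0.28 ± 0.28 and the phospholipase Pla2g4a -0.10 ± 0.15. Of the histamine degrading enzymes and receptors only Aoc1, diamine oxidase, was bright enough to test, at 0.02 ± 0.27, and Hnmt and the receptors Hrh1 to Hrh4 were below the filter.

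Other mast cell receptors and cytokines were lower in 6 of 8 tested genes (55.3% over all), in 4 of 8 with deficient array 3 alone, and in 4 of 8 when the hybridisation controls were a covariate. Il4r, the interleukin-4 receptor chain, read 605, 534 and 615 in the adequate group, against 389, 293 and 367 in the deficient group. All deficient arrays were below all adequate arrays, with a log2 change of -0.75 ± 0.19 (SE; limma adjusted p 0.344). Itgae, an integrin chain, had -0.44 ± 0.20, Enpp3, an ectoenzyme used as a basophil and mast cell activation marker, -0.38 ± 0.19, both without overlap (10.8% of all tested probe sets), and Il3ra -0.31 ± 0.23. Itgb7, counted as lower with all arrays, passed the filter only through the adequate group. Il1rl1, the interleukin-33 receptor, and the cytokine genes Il4, Il5, Il6, Il13, Tnf and Csf2 lay below the filter.

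Markers of other cell types differed on the same arrays. The 12 tested macrophage markers summed to 10147 to 11555 in the adequate group and to 7041, 7653 and 10743 in the deficient group. Of these, 10 of 12 were lower (55.3% over all). The 6 tested lymphocyte markers, all lower (55.3% over all), summed to 2879.5, 1366 and 2649.7 in the adequate group. In the deficient group they summed to 1226, 979 and 2166, and 1 of them, Cd3e, passed the filter only through the adequate group. The 6 other granule proteases summed to 5113, 2532 and 4411, and to 2489, 2259.9 and 5100.5. This sum, in which Mcpt1 was the brightest, was low on the same arrays, adequate array 2 and deficient arrays 1 and 2. Not all 6 genes had that pattern. Mcpt8 read 161.5 on deficient array 1, within its adequate range of 152 to 174. Mcpt9 read 155 on adequate array 2, above the 151 of adequate array 1. Fibroblast markers summed to 79009 to 93066 on the adequate arrays, and to 169890.0, 174100.0 and 83074 on the deficient arrays. In this list 6 of 7 were higher (44.7% over all). Collagen genes and Lum make up most of this sum, and Thy1 was lower with no overlap, at -0.92 ± 0.26 (SE). The 15 tested mast cell markers themselves summed to 15744, 12188 and 15144 in the adequate group, against 13509, 13362 and 13964 in the deficient group, so that their sums overlapped. Srgn was the brightest in these sums, at 3865, 3763 and 4289 in the adequate group and 6472, 6185 and 3397 in the deficient group. It went the other way from most of the list, where 12 were lower and 3 higher (55.3% lower over all). Of these, Tpsb2 and Slc18a2 each passed the filter through 1 group only. The 8 endothelial markers summed to 13160.0 to 14027, and to 11153, 10630.0 and 12410.0. Of 7 basophil markers Mcpt8 and Il3ra were tested; they summed to 506 to 632 on the adequate and to 450.4, 328 and 652 on the deficient arrays. The 4 tested neutrophil markers summed to 2553.9 to 2579.8, and to 2277, 2372 and 2160.3, lower on all deficient arrays. The 4 tested markers of the other Kit-expressing cells, interstitial cells of Cajal and melanocytes, summed to 4419 to 4933, and to 7939, 5785 and 4614. Etv1 made up most of that sum, and the list had 2 genes lower and 2 higher (55.3% lower over all). Intestinal epithelium markers summed to 4488 on adequate array 3 and to 805.4 to 1134 elsewhere. No marker had a signal of 0 on any array. Their part in the mast cell values, and that of the beta-actin ratio, was not tested. With the hybridisation controls as a covariate 0 members had an unadjusted p under 0.05 in limma, 9 of 9 were lower (49.9% of all tested probe sets), and their median log2 change was -0.08.

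**Figure D5:**
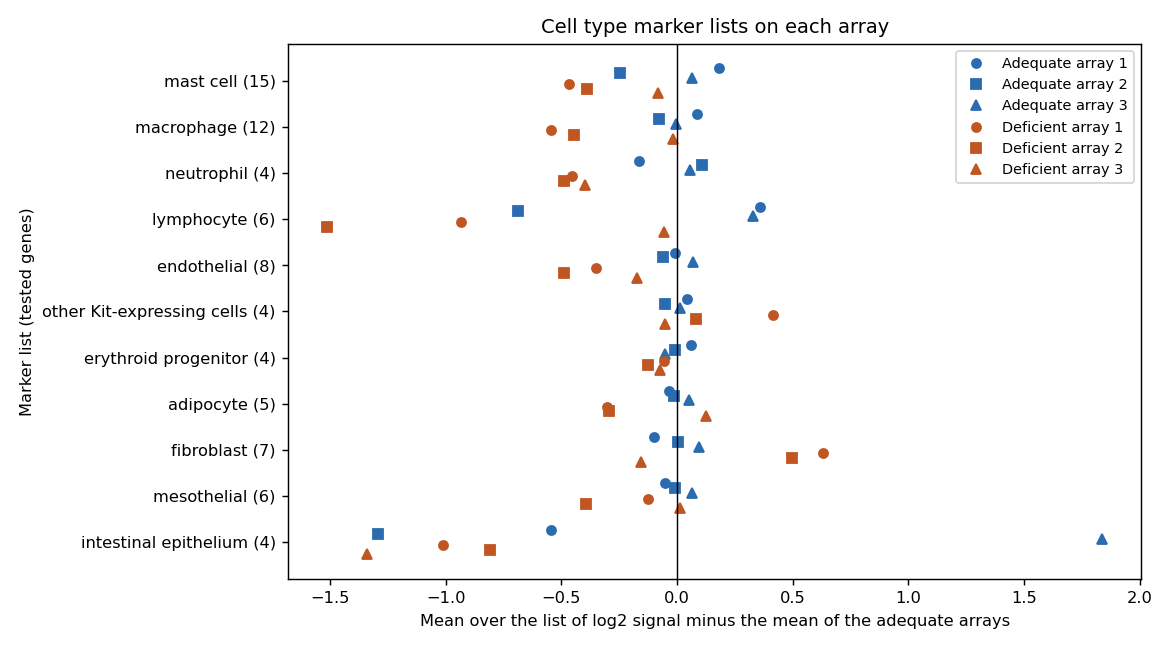
Mean over the tested genes of each marker list of the log2 signal minus the mean of the adequate arrays (horizontal axis), 1 point per array, for 11 lists (vertical axis, number of tested genes in brackets). Deficient arrays 1 and 2 lie at -0.47 and -0.39 in the mast cell list, at -0.55 and -0.44 in the macrophage list and at 0.63 and 0.50 in the fibroblast list.

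The genes whose profile over the 6 arrays was most like the mean profile of the members were sought among 10582 other tested genes. Likeness was the root mean square difference of mean-centred log2 signals, and its median over those genes was 0.31. The smallest values were 0.042 for Rbbp5, a subunit of histone methyltransferases, and 0.050 for Papss2, which makes the sulfate donor used on proteoglycans. Clec4a1, a lectin receptor of myeloid cells, had 0.053, Trim26 and Myo1d 0.055 and 0.056, Bola1 0.056, Nrbp1 0.060 and Serpinb1a 0.061. This order rested on Tpsb2, whose signal on deficient array 1 was far below the filter. Without Tpsb2 in the mean profile none of these 8 genes was among the nearest 8 (0 shared), their ranks were 562 to 1662, and 4 of the nearest 100 were shared. The nearest were then Ganab (0.028), Ift122 (0.039), Fkbp2 (0.043) and Stab1 (0.049), so no gene was among the nearest 8 under both choices. Of the members, Cma1 (0.084) and Cpa3 (0.096) lay nearest to the profile of all 9 and Tpsb2 (1.14) and Srgn (0.58) farthest.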

How the data were processed

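RNA of 6 arrays, 3 per maternal diet, was measured on biotin-labelled cDNA. The deposited values are linear intensity signals from MAS5 and Affymetrix Expression Console, per the submitters' processing notes, which name no versions. Every array has a 2% trimmed mean of 500.1 or 500.2 in the deposited intensity values, and this scaling hides any difference in total RNA. Detection calls and background settings: not given in the sources used here.

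Of 31099 probe sets, 57 controls were left out. Signals were log2 transformed with no offset, and probe sets whose mean lay under the 40th percentile (log2 6.46) were not tested, which left 18625. Deficient minus adequate was fitted with limma 3.58.1 in R 4.3.3 (lmFit, eBayes with a variance trend). Tests were two-sided and adjusted by Benjamini-Hochberg over all 18625. A gene stands for its brightest tested probe set. Of 20826 probe sets with a single symbol, 20758 matched the GRCr8 gene table by Entrez identifier, which changed 0 symbols. Tested on simulated arrays of this comparison (18625 probe sets, 200 of them changed), 9.5% were recovered at a log2 change of 1 and 74.4% at 2, with 3 false calls.

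Members and lists were chosen with earlier results of these data known. Named were all members, up to 4 tested genes per list with the smallest unadjusted p, and the 8 genes nearest in profile. Mcpt8, Slc18a2, Mitf, Gata2, genes below the filter and single markers were named after their values were seen. Alternatives were other normalizations, filters, an offset of 50, eBayes settings, the replicate number as a block, array weights, the hybridisation controls as a covariate, deficient array 3 alone and leaving out each array; list counts with other arrays and the members without Tpsb2 were added after seeing the data. Figures used matplotlib 3.10.9.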

Additional observations from a re-analysis of the deposited data

How the results depend on the processing

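The median log2 change of the members was -0.30 with all arrays, -0.11 with deficient array 3 alone, -0.08 when a covariate stood for the hybridisation controls, -0.24 with Tpsb2 left out, and between -0.41 and -0.21 when single arrays were left out. Member genes lower at an unadjusted p under 0.05 numbered 3 with all arrays (2 with Tpsb2 left out), 5 with array weights, 1 of 4 tested at the 60th percentile filter, which tests fewer genes, and 0 with deficient array 3 alone or the hybridisation controls as a covariate; leaving out single arrays gave 0 (without deficient array 2) to 5 (without deficient array 3). Members past the adjusted threshold numbered 0 with all arrays, 4 with array weights (Tpsab1, Tpsb2, Hdc and Srgn) and 0 to 3 with single arrays left out. Over all probe sets the counts were 0, 3462, and 0 to 3614. For the unadjusted p no share over all tested probe sets is given under these alternatives, so the member counts there are descriptions only. Directions turned for Tpsab1 (0.031), Tpsb2 (0.0096) and Srgn (-0.22) with deficient array 3 alone, for Srgn (-0.18) with the hybridisation covariate, for Fcer1a with array weights (0.069) and for Ms4a2 with median centring (0.0017). With single arrays left out, Fcer1a ranged from -0.19 to 0.22 and Ms4a2 from -0.23 to 0.12. The causes were not tested. Same-numbered arrays share only a number: their deviations correlated at 0.11, 0.15 and 0.0066, and with the replicate block the count at an unadjusted p under 0.05 was 3 and that past the adjusted threshold 0. No member had 2 tested probe sets, so averaging them changed nothing. Signals near the filter, such as Fcer1a and Ms4a2, are limited by background that the values do not give.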
